A study of Gallus gallus with 6 samples.

Results

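The 68 genes described here encode nuclear subunits of the mitochondrial respiratory chain and of ATP synthase. They were taken by symbol from the 14903 genes of the deposited count table, as all genes named NDUFA, NDUFB, NDUFC, NDUFS or NDUFV with a number, UQCR, COX4 to COX8, or ATP5. The rule itself used no measured value. The rule took 33 genes of complex I, 8 of complex III, 10 of complex IV with NDUFA4 counted among them, and 17 under ATP synthase symbols. Of those 17, ATP5S and ATP5SL are not structural subunits of the enzyme, the human ATP5SL product being an assembly factor of complex I. Total RNA of HD11, a macrophage-like chicken line of wild-type genotype, was sequenced in paired-end reads. Untreated (mock) cells gave 3 libraries, and 3 more came from cells that had received 100 ng/mL of recombinant chicken IFN-beta for 3 h. IFN-beta is a cytokine of the type I interferon family, which induces antiviral genes. The labels call the libraries of a group independent biological replicates and place all 6 in the same batch. They record no incubation time for the mock cells, and both groups come from the same single line.

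The respiratory chain passes electrons from NADH through complex I, and from other donors through ubiquinone, to complex III, cytochrome c and complex IV, where oxygen is reduced. Complexes I, III and IV pump protons across the inner mitochondrial membrane, and ATP synthase uses the return flow to make ATP. Most subunits come from nuclear genes, while the mitochondrial genome encodes a few hydrophobic ones, which are not analysed here. Macrophages are known to shift between oxidative phosphorylation and glycolysis when they are activated.

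Library totals were 15665594 to 15885227 counts. Markers of macrophages were present, with 10 genes summing to 4784 to 4873 CPM in mock and 5776 to 5860 in IFN-beta. LYZ, among them, had at most 3 counts in a library. CPM are counts scaled to the library, throughout with the TMM factors described below. The markers found for T cells, erythroid cells, fibroblasts and epithelial cells summed to at most 1.17 CPM in any library. Those for B cells summed to between 13.2 and 15.02 CPM in mock and between 30.7 and 37.2 CPM in IFN-beta, nearly all from BCL6, while CD79B had at most 1 count in a library. The interferon response genes OASL, IFIT5 and MX1 rose with log2 fold changes of 7.40, 7.28 and 6.56, which checks the labels of the libraries.

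Against that response, transcripts of the respiratory chain and ATP synthase differed little between the groups. The log2 fold changes of the 68 genes (IFN-beta over mock) lay between -0.23 and 0.20, with a median of 0.043 and an SD across genes of 0.084, whereas the 11091 tested genes had a median of -0.0010 and an SD of 0.563. Changes were tested with edgeR's quasi-likelihood test on counts scaled by TMM, which aligns the libraries on the bulk of the genes, and were called at an adjusted p under 0.05 (Benjamini-Hochberg over all tested genes). All 68 genes passed the filter on low counts, with 60 to 21776 counts in a library. Of them, 11 were called higher under that scaling, 0 were called lower and 57 were not called. Among all tested genes, 24.3% were called higher and 22.4% lower. With library size as the only scaling, 1 of the 68 was called higher and 4 lower, beside 15.6% and 36.1% of all tested genes. The counts by complex given below for that scaling are to be read beside the same shares. The direction of the calls depended on the scaling.

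**Figure D1:**
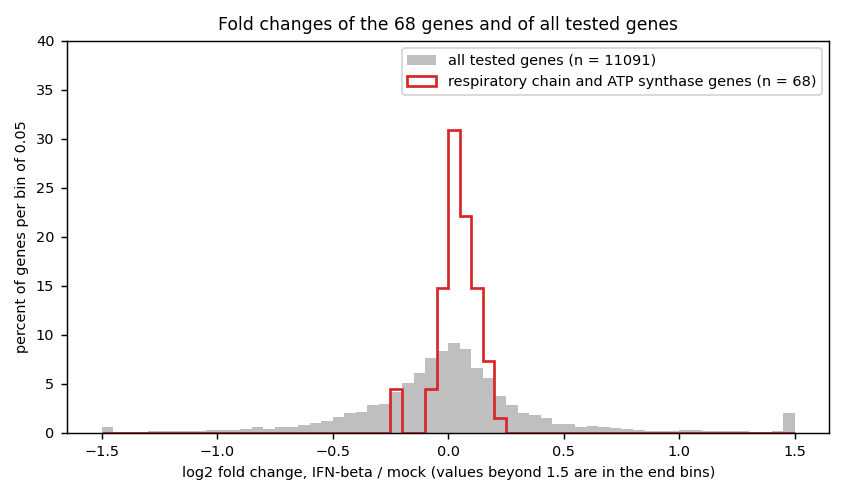
Distribution of log2 fold changes of IFN-beta over mock, as the percent of genes in bins 0.05 wide, for the 68 genes (red line) and all 11091 tested genes (grey). The 68 genes lie between -0.23 and 0.20, inside the wider distribution of all genes.

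Under TMM scaling the estimates were precise enough to bound the differences, but the intervals leave out the dependence on the scaling. The 95% interval of the fold change lay within 1.25-fold in either direction for 64 of the 68 genes and within 1.5-fold for all 68. The same held for 48.7% and 74.2% of all tested genes. The point estimate itself was within 1.1-fold for 58 of the 68 genes, compared with 43.5% of all tested genes. Most of the genes are abundant, and intervals are narrower at higher counts. The median of the 68 genes was 293 TPM (a level scaled to transcript length and library total) in mock, against 17.6 TPM for all tested genes. That gap is in part one of length, since the 68 genes were short, with a median implied length 0.146 times that of the median gene. In counts the 68 genes were also above most genes, as 2921 of 11091 tested genes reached their median level of 82.4 CPM. At or above 82.4 CPM, the median level of the 68 genes, 37% of 2921 genes were called higher and 16.8% lower, while 8 of the 34 respiratory genes at that level were called higher and 0 lower.

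In 10 of the 68 genes every IFN-beta library was above every mock library in CPM, and in 0 genes every IFN-beta library was below. Among all tested genes these shares were 27.5% and 26.3%. In the other 58 genes the groups overlapped. These counts of separated genes hold for TMM-scaled CPM and depend on that scaling. In TPM, UQCRB stayed above mock without overlap, while ATP5I and ATP5J2 were lower in every IFN-beta library. In the authors' deposited table, 7 of the 68 genes were higher and 0 lower at an adjusted p under 0.05, beside 14.8% and 12.3% of all genes in that table. All 7 were among the 11 called by edgeR. In bulk RNA, a difference in RNA per cell and a difference in the makeup of the culture cannot be told apart.

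**Figure D2:**
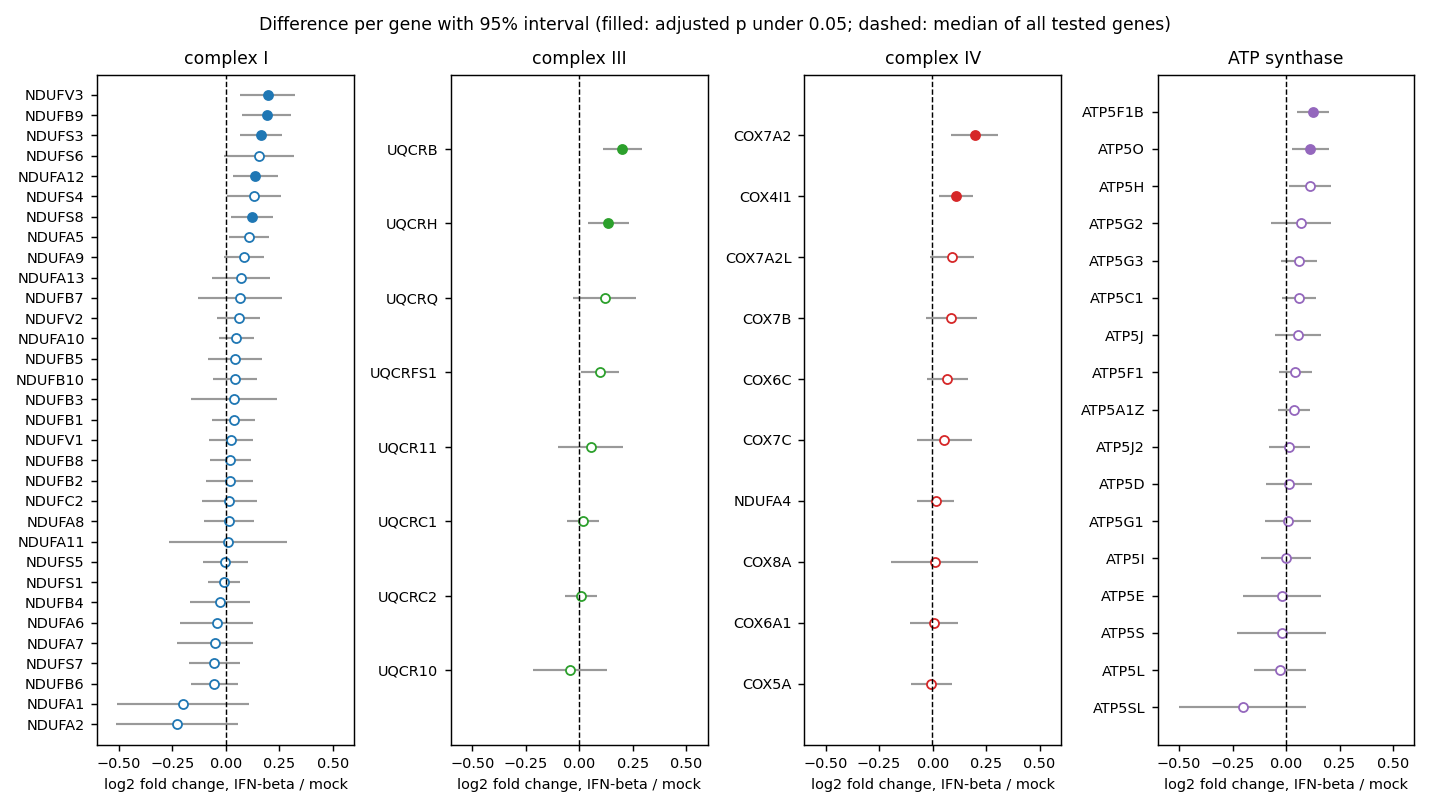
Log2 fold change of IFN-beta over mock for 67 of the 68 genes by complex, with its 95% interval (TMM scaling, edgeR); filled points have an adjusted p under 0.05 and the dashed line is the median of all tested genes. The filled points are 5 genes of complex I and 2 in each of the other panels, all to the right of the line.

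Complex I oxidises NADH and passes the electrons to ubiquinone. Its core subunits carry the flavin and the iron-sulfur clusters, and the many supernumerary subunits surround that core. Of its 33 genes, 5 were called higher and 0 lower under TMM scaling, with a median log2 fold change of 0.039, and with library size alone 0 were called higher and 3 lower. The 7 core genes gave 2 of these 5 calls, and the 26 supernumerary genes gave the other 3.

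NDUFS3, a core subunit of the arm that extends into the matrix, stood at 100.0, 105 and 107 CPM in the 3 mock libraries and at 109, 119 and 122 CPM in the 3 IFN-beta libraries. All IFN-beta libraries were above all mock libraries. The log2 fold change was 0.17 (SE 0.047; edgeR adjusted p = 0.00645), where the SE here and below is an approximation from the F statistic. NDUFS8, the other core gene called, is a ferredoxin-like subunit and stood at 96.6, 99.1 and 105 CPM in mock and 104, 110.3 and 114 CPM in IFN-beta. The lowest IFN-beta library was just below the highest mock library. Its log2 fold change was 0.12 (SE 0.046; edgeR adjusted p = 0.0356).

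The 3 supernumerary genes called were NDUFB9, NDUFV3 and NDUFA12. NDUFB9, a subunit of the membrane arm, measured 70.3, 73.8 and 81.3 CPM in mock and 81.6, 86.8 and 89.1 CPM in IFN-beta, a log2 fold change of 0.19 (SE 0.054; edgeR adjusted p = 0.00685). NDUFV3, a small subunit next to the NADH-binding core, measured 31.6, 34.6 and 37.0 CPM in mock and 39.0, 38.6 and 40.7 CPM in IFN-beta. Its log2 fold change was 0.20 (SE 0.061; edgeR adjusted p = 0.0127). NDUFA12, a subunit of the matrix arm, measured 78.0, 74.9 and 77.8 CPM in mock and 79.9, 83.4 and 90.4 CPM in IFN-beta, with a log2 fold change of 0.14 (SE 0.050; edgeR adjusted p = 0.0295). In none of the 3 did the groups overlap, although for NDUFB9 the lowest IFN-beta library was barely above the highest mock library. NDUFB9 overlaps the gene TATDN1 in the reference annotation, and the counting of shared reads is not given in the sources used here. TATDN1 had a log2 fold change of 0.12 (edgeR adjusted p = 0.0797) at a mean of 594 counts, against 1268 counts for NDUFB9. In all, 19 of the 68 genes overlap another gene in a reference of a later genome build, 12 of them a gene with counts here. Among these, the partners BRAF of NDUFB2 and CPSF2 of NDUFB1 had log2 fold changes of 0.48 and 0.19, and CRYM, the partner of UQCRC2, had -0.26.

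The other 28 complex I genes were not called under TMM scaling, and overlap of the groups is given here in CPM. NDUFS1, the large iron-sulfur subunit of the core, measured 251, 247 and 243 CPM in mock and 248, 251 and 237 CPM in IFN-beta. On that scale the groups overlapped, and the fold change of 0.994 had a 95% interval of 0.943 to 1.05. With library size alone NDUFS1 was called lower (log2 fold change -0.10, edgeR adjusted p = 0.0239). NDUFA9, a subunit of the matrix arm, had groups that did not overlap but was not called, with a log2 fold change of 0.083 (edgeR adjusted p = 0.137). Just outside the threshold lay NDUFA5 at an edgeR adjusted p of 0.0509. The supernumerary genes NDUFA5, NDUFA6, NDUFA7, NDUFA8, NDUFA10, NDUFA11, NDUFA13, NDUFB3, NDUFB4, NDUFB5, NDUFB6, NDUFB7, NDUFB8, NDUFB10, NDUFS4, NDUFS5 and NDUFS6 and the core genes NDUFS7, NDUFV1 and NDUFV2 had log2 fold changes from -0.054 to 0.16, and the groups overlapped in each.

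The lowest estimates in complex I belonged to its scarcest transcripts by counts. NDUFA2 measured 5.38, 6.57 and 6.73 CPM in mock and 4.48, 6.19 and 5.30 CPM in IFN-beta, and its log2 fold change of -0.23 had an SE of 0.14 (edgeR adjusted p = 0.187). NDUFA1, a subunit needed for assembly in mammals, measured 7.48, 10.2 and 10.4 CPM in mock and 6.36, 7.95 and 10.1 CPM in IFN-beta, with a log2 fold change of -0.20 (SE 0.15; edgeR adjusted p = 0.279). In both genes the groups overlapped, and library 1 was the lowest of its group. By level per length, complex I ran from NDUFB1 at 577, 586 and 609 TPM in mock to NDUFB9 at 53.8, 56.5 and 60.2 TPM, a ratio of 10.4 between the means. NDUFB2, the next highest, had 511, 509 and 521 TPM, and NDUFC2, the next lowest, had 60.0, 60.5 and 60.1 TPM. In IFN-beta the values were 565, 543 and 586 TPM for NDUFB1 and 58.3, 60.4 and 61.0 TPM for NDUFB9, while NDUFC2 measured 58.2, 57.8 and 53.2 TPM. NDUFB1 remained the highest, and NDUFC2 and NDUFB9 changed places at the low end.

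Complex III moves electrons from ubiquinol to cytochrome c, with the Rieske iron-sulfur protein UQCRFS1 among its nuclear-encoded redox subunits. Of its 8 genes 2 were called higher and 0 lower under TMM scaling, with a median log2 fold change of 0.077, and 1 was called higher and 1 lower with library size alone. UQCRB, a small subunit on the matrix side that in mammals lies near the ubiquinone pocket, measured 80.8, 79.1 and 81.6 CPM in mock and 90.2, 92.1 and 95.4 CPM in IFN-beta. The gap between the groups was wider than the spread within either. UQCRB rose with a log2 fold change of 0.20 (SE 0.044; edgeR adjusted p = 0.000815), the smallest adjusted p among the 68 genes.

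Of the genes called higher with TMM, UQCRB was also the one whose call changed least with the processing. It was called higher in 14 of 16 alternative settings, including the leaving out of each library and the scaling by library size alone, where the log2 fold change was 0.11 (edgeR adjusted p = 0.0396). In TPM it measured 68.6, 67.1 and 66.9 in mock and 71.6, 71.2 and 72.4 in IFN-beta, again without overlap. The exceptions were limma on log2(TPM + 1) and log2(TPM + 0.1), where the adjusted p reached 0.0801 at most.

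UQCRH, the acidic hinge subunit that helps to dock cytochrome c, measured 193, 199.8 and 208 CPM in mock and 205, 219 and 237 CPM in IFN-beta. Its groups overlapped by 1 library, and its log2 fold change was 0.14 (SE 0.046; edgeR adjusted p = 0.0207). The reference table names this gene UQCRHL. UQCRFS1 measured 207, 209 and 221 CPM in mock and 214, 229 and 239 CPM in IFN-beta, with a log2 fold change of 0.099 (edgeR adjusted p = 0.0645). Under TMM scaling the core protein genes stayed nearest to an equal level. UQCRC2 measured 199 CPM in each mock library and 195, 200.5 and 205 CPM in IFN-beta. Its fold change was 1.01 with a 95% interval of 0.955 to 1.06, and UQCRC1 had a log2 fold change of 0.017. In TPM UQCRC2 was lower in every IFN-beta library, at 191, 192 and 193 against 209, 209 and 202 in mock. UQCRC2 was called lower with library size alone (log2 fold change -0.085, edgeR adjusted p = 0.0475). Limma on log2(TPM + 1) called UQCRC2 and UQCRC1 lower, at -0.11 and -0.098. The small subunit genes UQCRQ, UQCR11 and UQCR10 were not called, with log2 fold changes of 0.12, 0.055 and -0.044. UQCRQ measured 621, 587 and 689 TPM in mock and 629, 651 and 641 TPM in IFN-beta, the next highest level after UQCRH, and mock library 3 was its highest library. Within the complex the mock level ran from 1243, 1257 and 1246 TPM for UQCRH to 68.6, 67.1 and 66.9 TPM for UQCRB, a ratio of 18.5.

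Complex IV, cytochrome c oxidase, has a catalytic core encoded by the mitochondrial genome and a coat of nuclear subunits, from which the 10 genes here come, except COX7A2L, a factor of supercomplexes. Under TMM scaling 2 were called higher and 0 lower, with a median of 0.062, and with library size alone 0 were called in either direction. COX7A2, a small membrane subunit expressed in many tissues, measured 80.9, 82.8 and 87.3 CPM in mock and 89.9, 94.1 and 104 CPM in IFN-beta. The groups did not overlap, and IFN-beta library 3 was clearly the highest. The log2 fold change was 0.20 (SE 0.052; edgeR adjusted p = 0.00438).

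COX4I1, a large nuclear subunit, measured 506, 491 and 533 CPM in mock and 529.5, 549 and 572 CPM in IFN-beta. The groups overlapped by 1 library, and the log2 fold change was 0.11 (SE 0.039; edgeR adjusted p = 0.0266). In TPM the same gene measured 1953, 1867 and 1948 in mock and 1909.5, 1911 and 1944 in IFN-beta. The difference on the log2(TPM + 1) scale was -0.000890, close to no difference. With library size alone the log2 fold change was 0.016 (edgeR adjusted p = 0.749). COX4I1 was the most abundant of the 68 genes in TPM.

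Of the complex IV genes that were not called with TMM, NDUFA4 was first assigned to complex I and in mammals sits in complex IV. It measured 202, 209 and 223 CPM in mock and 204, 218 and 219 CPM in IFN-beta. In CPM its groups overlapped almost fully. In TPM it was lower in every IFN-beta library, at 430, 445 and 438 against 456.5, 468 and 479 in mock. Limma on log2(TPM + 1) called it lower, at -0.097 (adjusted p = 0.0229). COX7B measured 1253, 1237 and 1297 TPM in mock and 1219, 1252 and 1277 TPM in IFN-beta, and COX8A, the least abundant of the complex, measured 86.2, 92.2 and 111 TPM in mock and 78.2, 97.8 and 93.9 TPM in IFN-beta. COX7A2L, a relative of COX7A2 known in mammals for joining complexes III and IV, measured 67.6, 70.3 and 75.3 CPM in mock and 75.5, 76.3 and 74.9 CPM in IFN-beta (log2 fold change 0.089; edgeR adjusted p = 0.150). COX7A2 made up 57.9% ± 0.470 (SD, n = 3) of the TPM of this pair in mock and 59.8% ± 2.01 in IFN-beta, and IFN-beta library 3 alone was at 62.1%. The remaining genes COX5A, COX6A1, COX6C and COX7C had log2 fold changes from -0.0067 to 0.068 with TMM, with overlapping groups in CPM.

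ATP synthase joins a catalytic F1 head to a membrane ring of c subunits through a central and a peripheral stalk. Of the 17 genes under its symbols 2 were called higher and 0 lower with TMM, with a median of 0.036, and with library size alone 0 were called in either direction. ATP5F1B, the catalytic beta subunit, measured 846, 799.7 and 859.7 CPM in mock and 882, 931 and 919.9 CPM in IFN-beta. All IFN-beta libraries were above all mock libraries, and the log2 fold change was 0.13 (SE 0.036; edgeR adjusted p = 0.00819). Its partner in the head, the alpha subunit gene ATP5A1Z, measured 1253, 1288 and 1344 CPM in mock and 1310.3, 1362 and 1311 CPM in IFN-beta, with overlapping groups and a log2 fold change of 0.036 (edgeR adjusted p = 0.425). Chickens also have a near-identical copy of this gene on the W chromosome, which is not analysed here, so reads of the pair may have been divided or merged.

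ATP5O, the peripheral stalk subunit known as OSCP, measured 141, 140.4 and 153 CPM in mock and 155, 154 and 161 CPM in IFN-beta, a log2 fold change of 0.11 (SE 0.042; edgeR adjusted p = 0.0324). The groups did not overlap, and mock library 3 came within 1 CPM of the IFN-beta range. The other peripheral stalk genes, ATP5F1, ATP5H and ATP5J, were not called and had positive estimates. ATP5H, the d subunit, came nearest to the threshold with an edgeR adjusted p of 0.0608. The central stalk genes ATP5C1, ATP5D and ATP5E were not called either, with log2 fold changes between -0.019 and 0.060.

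The c ring is encoded by 3 genes, whose products in mammals differ in the targeting sequence that is cut off on import. ATP5G3 supplied 52.3% ± 0.513 (SD, n = 3) of their summed TPM in mock and 52.9% ± 1.05 in IFN-beta. ATP5G1 supplied 33.6% ± 0.315 in mock and 32.8% ± 0.336 in IFN-beta, and ATP5G2 supplied 14.1% ± 0.283 and 14.4% ± 0.731. The shifts of under 1 percentage point were within the larger group SD for ATP5G2 and ATP5G3. For ATP5G1 the 3 IFN-beta shares of 32.5, 32.6 and 33.1% were all below the lowest mock share, which was 33.3%.

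The most abundant gene per length under the ATP synthase symbols was ATP5I, a small membrane subunit, at 1285, 1299 and 1265 TPM in mock and 1206, 1170 and 1212 TPM in IFN-beta. ATP5J2, of similar kind, measured 1161, 1170 and 1130 TPM in mock and 1111, 1095 and 1054 TPM in IFN-beta. Both genes were lower in every IFN-beta library in TPM, but their log2 fold changes on TMM-scaled counts were -0.00024 and 0.015. ATP5SL and ATP5S, the entries that are not subunits, were the least abundant. ATP5SL measured 6.71, 7.69 and 8.58 TPM in mock and 5.72, 6.14 and 6.59 TPM in IFN-beta, and ATP5S lay between 21.5 and 23.3 TPM in mock and between 19.5 and 21.0 TPM in IFN-beta. Neither was called in edgeR, and neither was ATP5L, another small membrane subunit (log2 fold change -0.028).

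**Figure D3:**
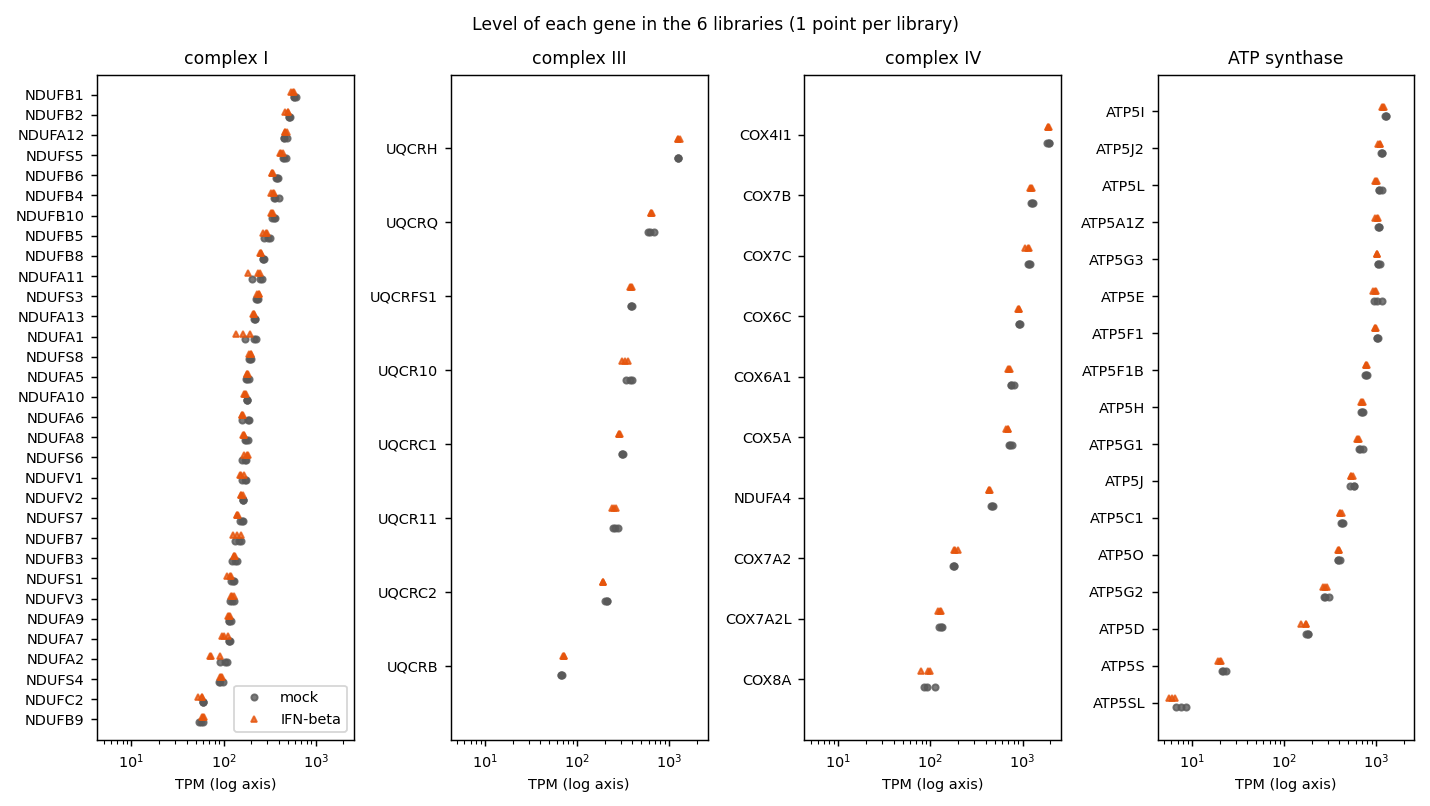
TPM on a log axis for 67 of the 68 genes in each of the 6 libraries, by complex and sorted by mean TPM in mock; grey circles are mock and orange triangles IFN-beta. Levels span a ratio of 10.4 within complex I and 19.9 within complex IV, and the points of both groups lie close together in nearly every row.

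Subunits that assemble into the same complex were present at unequal levels in TPM, in a similar order in both groups, although neighbours such as NDUFB9 and NDUFC2 changed places. The Spearman correlation of mean TPM between the groups over the 68 genes was 0.997, given as a description. The median TPM in mock was 181 for complex I, 339 for complex III, 756 for complex IV and 706 for the genes under ATP synthase symbols. The last median includes ATP5S and ATP5SL, which are not subunits, at 22.2 and 7.66 TPM. It is therefore lower than that of the ATP synthase subunits alone. All but 1 of the 68 genes were shorter by the effective length implied by counts and TPM than the median gene, with a median of 0.146 times that length. The Spearman correlation of this length and TPM was -0.39 across the 68 genes. Because the length is itself derived from TPM, a negative value is partly built in. The order of levels and their ratios within a complex also rest on this length correction. In mock, ATP5I, the highest under the ATP synthase symbols in TPM, had a mean of 57.3 CPM, against 1295 CPM for ATP5A1Z. UQCRB and NDUFB9, the lowest of complexes III and I in TPM, were also unusually long for the set, at 0.645 and 0.716 times the median gene.

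The direction of the small shift depended on the scaling. On TMM-scaled counts the 68 genes summed to 9343 ± 362 CPM in mock and 9752 ± 321 CPM in IFN-beta (SD, n = 3), a ratio of 1.04. In TPM they summed to 30497 ± 533 in mock and 29310 ± 391 in IFN-beta, a ratio of 0.961. By library they took 0.934, 0.951 and 1.01% of all counts in mock and 0.914, 0.957 and 0.962% in IFN-beta, with overlapping groups. The TMM factors of the mock libraries lay between 1.03 and 1.04 and those of the IFN-beta libraries between 0.963 and 0.973, which raises IFN-beta values relative to the plain totals.

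With library size alone the median of the 68 genes was -0.050 and that of all tested genes -0.094. Then 15.6% of all tested genes were called higher and 36.1% lower, with UQCRB called higher among the 68 and NDUFB6, NDUFS1, NDUFS7 and UQCRC2 called lower. With limma on log2(TPM + 1) the medians were -0.067 and -0.10. That test called 13.5% of genes higher and 37.6% lower, and 0 of the 68 higher and 21 lower, from -0.36 for NDUFA2 to -0.069 for ATP5F1. None of the 21 was among the 11 called with TMM. Measured from the median of all genes in the same setting, the median of the 68 was 0.044 above it with TMM, 0.043 with library size alone and 0.034 with log2(TPM + 1). Scalings of the same counts move all genes by nearly the same amount, so this difference is nearly fixed between TMM and library size. The centre of the 68 genes was slightly above that of all tested genes on these counts and on log2(TPM + 1). On log2(TPM + 1) without a filter on low values the centre was below, at a difference of -0.016.

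**Figure D4:**
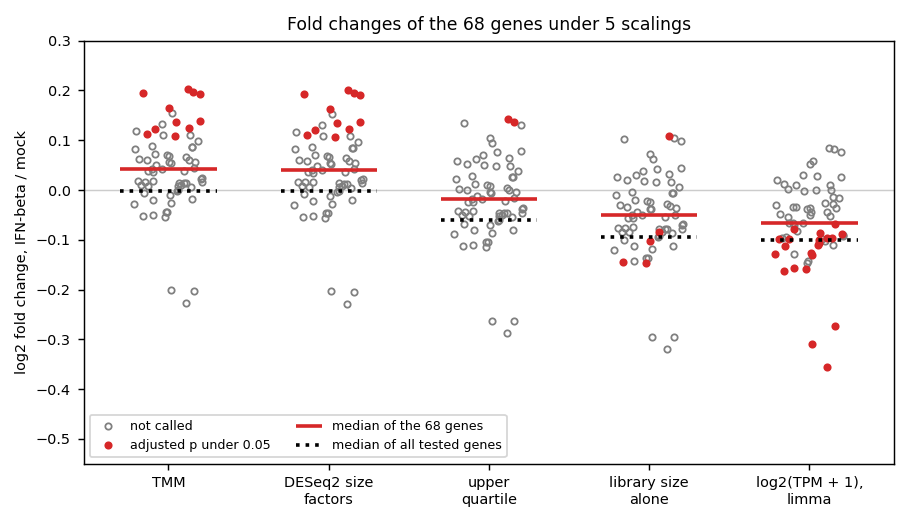
Log2 fold changes of the 68 genes under 5 scalings; filled red points have an adjusted p under 0.05, the red bar is the median of the 68 genes and the dotted bar that of all tested genes. The red bar moves from 0.043 with TMM to -0.067 with log2(TPM + 1), staying above the dotted bar in each column. The columns other than log2(TPM + 1) scale the same counts and move all genes nearly alike, so the gap between their bars is nearly fixed.

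The libraries of a group also differed among themselves. In mock, library 3 was the highest of its group in 60 of the 68 genes and library 1 the lowest in 49. In IFN-beta, library 3 was the highest in 46 genes and library 1 the lowest in 59. Over all tested genes mock library 3 was the highest in 34.5% and IFN-beta library 1 the lowest in 36.0%. The median deviation of the 68 genes from their group mean, in log2 CPM, was -0.056, -0.015 and 0.082 in the mock libraries and -0.069, 0.014 and 0.055 in the IFN-beta libraries. In both groups the gap between libraries 1 and 3 exceeded the median difference of 0.043 between the groups. The order of the library medians was the same in both groups. With the replicate number added to the model, the median log2 fold change of the 68 genes was again 0.043. Every replicate number occurs in both groups, so adding it leaves the estimates nearly unchanged by construction. The unchanged median therefore says nothing about those gaps.

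Transcript length moved with those steps. Across the 68 genes, the Spearman correlation of length with the difference between libraries 3 and 1 was -0.40 in mock and -0.46 in IFN-beta, and across 10000 genes it was -0.50 and -0.41. With the log2 fold change of IFN-beta over mock, length correlated at 0.30 across the 68 genes and at -0.16 across the 10000 genes. These are descriptions across genes of the same libraries, and the part of length in the calls was not tested. Leaving out mock library 3 raised the number of the 68 genes called higher to 22, and leaving out IFN-beta library 1 raised it to 17. Leaving out mock library 1 or 2 gave 6 and 5, and leaving out IFN-beta library 2 or 3 gave 5 each. Over all tested genes, 2808 of 11184 were called higher without mock library 3 and 2621 of 11210 without IFN-beta library 1. The other fits called 2338 to 2593 of all tested genes higher. NDUFS3, NDUFB9, UQCRB and COX7A2 were called in all 6 of these fits. The other 7 were lost in at least 2 of the 6. Without IFN-beta library 3, NDUFA1 was called lower (log2 fold change -0.39; edgeR adjusted p = 0.0466).

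**Figure D5:**
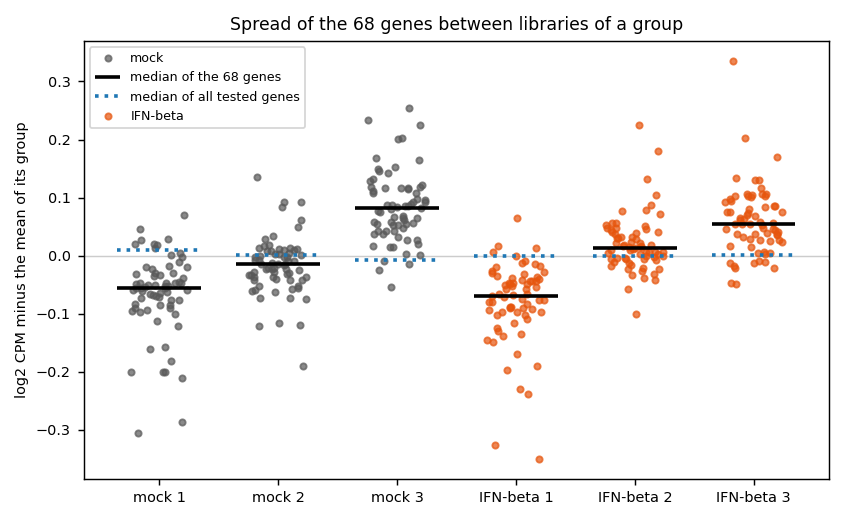
Deviation of each of the 68 genes from the mean of its group in log2 CPM, by library; the black bar is the median of the 68 genes and the dotted bar that of all tested genes. The 68 genes lie low in library 1 and high in library 3 of both groups, with medians from -0.069 to 0.082, while the medians of all genes stay near 0.

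Other nuclear genes of the same pathway were taken from lists. Unless another scaling is named, their counts are edgeR calls under TMM. Those are to be read beside the 24.3% of all tested genes called higher and 22.4% called lower. List counts with library size alone, here and in the next paragraph, are to be read beside 15.6% called higher and 36.1% called lower. The list of complex II and the electron carriers held 8 genes, among them the complex I gene NDUFAB1, which the symbol rule did not take. Of these 8 genes, 1 was higher and 1 lower. CYCS, which encodes cytochrome c, rose from 426 ± 12.2 to 505 ± 15.8 CPM (SD, n = 3; log2 fold change 0.25; edgeR adjusted p = 1.3e-05). ETFDH, which passes electrons from fatty acid oxidation to ubiquinone, fell by 0.13 on the log2 scale (edgeR adjusted p = 0.0172), a call that was lost without mock library 1 or 2 or IFN-beta library 2. Of 44 assembly factors, 3 were higher and 6 lower, and with library size alone 1 was higher and 12 lower. COA7, a factor for complex IV, rose from 26.1 ± 1.91 to 34.8 ± 2.55 CPM, while TIMMDC1, a factor for complex I, fell by 0.25 on the log2 scale. TMEM70, a factor for ATP synthase in mammals, rose by 0.16 on the log2 scale, a call lost with library size alone (log2 fold change 0.063) and on all 3 TPM scales.

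Regulators of mitochondrial gene expression had a median log2 fold change of -0.12, with 2 of 18 higher and 6 lower, and with library size alone 0 were higher and 13 lower. POLG, the catalytic subunit of the mitochondrial DNA polymerase, fell from 71.3 ± 4.11 to 51.4 ± 3.27 CPM (log2 fold change -0.47; edgeR adjusted p = 1.2e-06). MTERF2, of the mitochondrial termination factor family, and GABPB2, a partner of the ETS factor GABPA, fell by 0.48 and 0.27 on the log2 scale. Of 8 carriers and channels, 3 were higher and 1 lower. SLC25A25, an ATP-Mg/phosphate carrier, rose from 31.3 ± 1.24 to 68.1 ± 3.59 CPM (2.18-fold). SLC25A6, an ADP/ATP exchanger, rose by 0.22 on the log2 scale, and SLC25A24, a relative of SLC25A25, fell by 0.26, a call lost without mock library 1.

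Of 11 supercomplex and cristae factors, 3 were higher and 1 lower. HIGD1A, which in mammals binds complex IV and is induced by low oxygen, rose from 184 ± 8.21 to 295 ± 4.37 CPM (1.60-fold; edgeR adjusted p = 1.1e-11). APOO, of the complex that shapes cristae, rose by 0.26 on the log2 scale, while its relative APOOL fell by 0.23 on TMM-scaled counts and was not called on log2(TPM + 1). Of the list of mitochondrial enzymes and partners known from activated macrophages 2 genes were tested and both rose. RSAD2, also on that list, had at most 1 count in a library of either group and was not tested. ACOD1, which makes itaconate, went from 7.38 ± 0.481 to 236 ± 7.04 CPM, and CMPK2, a mitochondrial nucleotide kinase, from 9.94 ± 0.590 to 314 ± 8.85 CPM. In direction, the changes named here for genes outside the set of 68 were the same with TMM, library size alone and log2(TPM + 1).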

How the data were processed

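The authors deposited gene counts, TPM and their own comparison, which per the file headers holds a log2 fold change and raw and adjusted p-values for each gene. The counts are expected counts as deposited, since 2322 genes, 7 of the 68 among them, had a count that was not whole, and they were rounded. The submitters' processing notes name the build GRCg6a and the tool DESeq2. For the aligner, counter and strandedness, the choice is not given in the sources used here. Reads of overlapping or near-identical genes are therefore uncertain.

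With edgeR 4.0.16 (R 4.3.3), 11091 genes passed filterByExpr, TMM factors were applied and a quasi-likelihood model with the group alone was fitted. Calls had a Benjamini-Hochberg adjusted p under 0.05. The biological coefficient of variation was 3.56%. SEs are approximate: the size of the log2 fold change was divided by the root of the F statistic. Alternatives were other scalings and filters, DESeq2 1.42.0, limma 3.58.1 on TPM, a replicate block and leaving out each library. Replicate pairs differed by more than sampling noise, with a chi-square of 1.67 to 4.48 times its degrees of freedom.

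Of the 68 identifiers, 67 matched a RefSeq table of GRCg7b, used for names and neighbours only. The genes and lists were chosen with earlier results of these data known. Values by library were given, in each complex, for called genes (up to 4), for the 2 highest and 2 lowest in TPM and for isoform pairs, and from each list for up to 3 called genes. NDUFS1, NDUFS8, NDUFA1, NDUFA2, UQCRFS1 and ATP5A1Z were added after their values were seen. Sequences and promoter motifs were not analysed here, and the values of 1 gene of the 68 are not reported here.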

Additional observations from a re-analysis of the deposited data

How the results depend on the processing

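Of the 68 genes, 11 were called higher and 0 lower with edgeR and TMM, at a median log2 fold change of 0.043. DESeq2 called 7 higher and upper quartile factors 2, beside 2273 of 14892 and 2020 of 11091 among all tested genes. Library size alone called 1 higher and 4 lower (median -0.050). Limma on log2(TPM + 1) called 0 higher and 21 lower, and on log2(TPM + 0.1) 0 and 20 (medians -0.067 and -0.067). Without the TPM filter it called 1 higher and 9 lower (median -0.067), beside 1395 higher and 3582 lower of 14897 among all tested genes. The summed ratio of 0.961 in TPM became 1.04 in CPM. DESeq2 size factors within edgeR and both other count filters left 11 called higher.

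By complex, calls for complex I were 5 higher and 0 lower. They became 2 higher with DESeq2, 0 higher with upper quartile factors, 0 higher and 3 lower with library size, and on TPM 0 higher with 9, 8 and 4 lower for log2(TPM + 1), log2(TPM + 0.1) and no filter. Complex III, at 2 and 0, became 1 and 1 with library size, 1 higher with upper quartile factors and, on TPM, 0, 0 and 1 higher with 2 lower in each. Complex IV, at 2 and 0, became 0 higher with library size, 1 with upper quartile factors, and 0 higher on TPM with 3, 3 and 1 lower. ATP synthase, at 2 and 0, became 1 higher with DESeq2, 0 with library size or upper quartile factors, and 0 higher on TPM with 7, 7 and 2 lower.

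Over all tested genes, 2697 higher and 2480 lower became 1734 and 4008 with library size. These numbers became 1376 and 3823 on log2(TPM + 1), and 1377 and 3815 on log2(TPM + 0.1). Without the TPM filter they were 1395 and 3582. Upper quartile factors called 3356 lower, and DESeq2 called 1899 lower. The median moved from -0.0010 to -0.094 with library size, -0.061 with upper quartile factors, -0.10, -0.11 and -0.051 on the 3 TPM scales, and 0.0077 without the count filter.

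In the lists, assembly factors went from 3 higher and 6 lower to 1 and 12 with library size, 1 and 17 on both filtered TPM scales, 1 and 13 without the filter, 10 lower with upper quartile factors and 2 lower with DESeq2. Regulators went from 2 higher and 6 lower to 0 and 13 with library size, 0 and 12 on both filtered TPM scales, 0 and 10 without the filter or with upper quartile factors, and 0 higher with DESeq2. Carriers called lower went from 1 to 3 on all TPM scales. Complex II and electron carriers called lower went from 1 to 2 with library size and 5 on all TPM scales. Cristae factors called lower went from 1 to 3 with library size or filtered TPM and 2 with upper quartile factors.

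Leaving out each library gave 5 to 22 of the 68 genes called higher and 0 to 1 lower. Over all tested genes it gave 2338 to 2808 higher and 2005 to 2622 lower. For complex I the counts were 2 to 8 higher and 0 to 1 lower. For complex III they were 1 to 4 higher, for complex IV 1 to 5 and for ATP synthase 0 to 5. The median of all genes ran from -0.0043 to 0.0056. In the lists it gave 3 to 5 assembly factors higher and 2 to 5 lower, 0 to 2 regulators higher, 0 to 1 carriers lower, 0 to 1 complex II and electron carrier genes lower, and 1 to 2 cristae factors lower.

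Among the genes named by rule, estimates changed sign with a call on either side for UQCRC2 (-0.085 with library size, -0.11 on the TPM scales), COX4I1 (-0.000890), NDUFA4 (-0.097), ATP5J2 (-0.087) and ATP5G1 (-0.099), the last 4 on TPM. Of the remaining genes, NDUFB8, UQCRC1, COX6A1, ATP5F1 and ATP5A1Z also had positive estimates with TMM and were called lower on log2(TPM + 1), at -0.088, -0.098, -0.097, -0.069 and -0.079. Except for COX4I1, the genes called with TMM stayed positive in all 16 alternatives. The cause of these changes was not tested, apart from what each scaling sets by its construction.

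Replicate numbers were not taken to pair the samples, since over all tested genes no same-numbered pair of libraries had deviations correlated over 0.1. The correlations were 0.083, 0.076 and 0.067 over all tested genes and 0.589, 0.062 and 0.381 over the 68. Over all genes, libraries with unlike numbers correlated negatively, from -0.060 to -0.014, so each library correlated best with its own number. Whether the numbers mark pairs was not tested. With the replicate number as a block, 17 of the 68 genes were called higher and 0 lower, 8 in complex I and 4 in complex III. Over all tested genes, 3077 of 11091 were then called higher and 2792 lower. Promoter motifs and protein features were not run. Depth limits the scarcest genes, such as NDUFA2 and ATP5SL, whose intervals reach beyond 1.25-fold.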

Other observations

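Among transcripts of overlapping gene pairs, UQCRC2 and its partner CRYM gave unlike values: UQCRC2 had a log2 fold change of 0.0079 at a mean of 3151 counts, and CRYM -0.26 at 415 counts (edgeR adjusted p = 0.00276). NDUFB2 and BRAF also differed, at 0.018 and 0.48 (edgeR adjusted p = 1.3e-07 for BRAF). PPARGC1A, a coactivator of mitochondrial biogenesis, had 5, 1 and 1 counts in the mock libraries and 5, 10 and 4 in the IFN-beta libraries. SLC25A4 and UCP3 had at most 1 count in a library. These genes did not pass the filter on low counts and were not tested.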
